A study of Mus musculus with 12 samples.

Results

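The genes of the translocon and of early secretory traffic are 49 mouse genes on one route, from the ribosome to the Golgi. They were picked by symbol, with earlier results of these data known. The shares of all genes given below are therefore a comparison, not a test of the list. They comprise 8 genes for the signal recognition particle, or SRP, and its receptor, 9 of the Sec61 translocon and its partners, 5 of signal peptidase, 12 of the COPII coat, 8 of the COPI coat and its GTPases, and 7 cargo receptors and export adaptors. Each of the 49 symbols matched 1 of the 56065 deposited gene identifiers, and all 49 were among the 17893 genes that passed the filter on low counts.

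SRP binds the signal sequence of a nascent secretory protein and docks the ribosome at the endoplasmic reticulum (ER), where the chain passes through the Sec61 channel and signal peptidase cuts off its signal. COPII-coated vesicles then carry folded cargo out of the ER, and COPI-coated vesicles return escaped ER proteins and cycling receptors. Salivary acinar cells are known for a dense rough ER, since they make and export large amounts of protein.

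The data were bulk RNA-seq of whole submandibular glands (SMGs) from 8-week-old mice, in 4 groups of 3 mice: wild-type C57BL/6J females, Pou2f3-/- females, wild-type C57BL/6J males and Pou2f3-/- males. The knockout animals, labelled C57BL/6J-Pou2f3 knockout, lack the transcription factor that tuft cells need, in every cell of the body, and no group received a treatment. The comparisons ask how the loss of tuft cells, which are rare chemosensory cells of the ducts, changed the glands of each sex. In whole glands, fewer cells of a type and less RNA per cell cannot be told apart.

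The 12 libraries held 47031917 to 67881902 estimated counts each. Pou2f3 itself was too low to check the labels, with 0 counts in the 3 knockout females, at most 2 in the wild-type females, at most 3 in the knockout males and at most 10 in the wild-type males. A few libraries stood apart in products of the neighbouring glands: Muc19 reached 283335 normalized counts in knockout female 3 and 427285 in wild-type male 3, and knockout male 2 held 117438 of Bpifa2 and 48611 of Smr3a. Of 10 acinar markers 3 were lower in knockout females (Aqp5, Pip and Slc12a2) and the summed level of the list was 1806258 to 2349697 normalized counts there against 2875796 to 3564752 in wild-type females. Most of that sum was 1 gene, Prol1, at 1398665 to 1766230 and 2206315 to 2461090, which was not called (adjusted p = 0.077, edgeR). The list also holds Muc19, Bpifa2 and Smr3a, so the sum of knockout female 3 includes its 283335 counts of Muc19. Among the other lists, 3 of 5 myoepithelial, 3 of 7 plasma cell and 2 of 5 macrophage markers were lower in knockout females. So were 2 of 5 adipocyte, 1 of 4 skeletal muscle and 1 of 6 duct markers. Higher were 2 of 7 granular convoluted tubule, 1 of 6 duct and 1 of 5 tuft cell markers. The lymphocyte list gave no call, with 1 of its 5 genes above the low-count filter. Over all genes, 19.3% were called lower and 17.6% higher in the same comparison. Among protein-coding genes with a mean of at least 1000 normalized counts, 45.7% were called lower. Whether these short lists differ from such shares was not tested. The macrophage, adipocyte, skeletal muscle, granular convoluted tubule and tuft cell calls were each lost without 1 of the wild-type females, as were Slc12a2, Cnn1 and Derl3. Single wild-type females stood apart in some of these genes, with 2510 normalized counts of Adgre1 in wild-type female 1 against 370 and 517, and 2413 of Cfd in wild-type female 3 against 46.1 and 311, and both genes overlapped between the female genotypes. The plasma cell calls were Sdc1, Txndc5 and Derl3. The immunoglobulin genes Igha and Ighm and the gene Jchain were not called (adjusted p = 0.38, 0.24 and 0.63, edgeR). The plasma cell marker Mzb1 had at most 10 counts in any library, and the tuft cell genes Gnat3 and Il25 had 0 counts in all 12 libraries. What part these cell types have in the results below was not tested.

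Levels are given as normalized counts, which are estimated counts scaled between libraries by TMM so that the typical gene is level. That choice matters here. The SRP RNA gene Rn7s1 took 27.0 to 34.5% of all counts in wild-type females, 31.3 to 39.1% in knockout females and 11.8 to 26.9% in males, and the TMM factors ran from 0.625 in a wild-type female to 1.45 in a wild-type male. As a plain share of all counts, the 49 members together held 0.365 to 0.391% in wild-type females, 0.281 to 0.343% in knockout females, 0.538 to 0.589% in wild-type males and 0.488 to 0.538% in knockout males. When Rn7s1 was taken out of the totals, the shares of wild-type and knockout females nearly met, at 0.500 to 0.596% and 0.461 to 0.499%. Every rise and fall below is therefore a change relative to the typical gene of the same libraries.

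In female glands, the loss of Pou2f3 went with a fall in nearly the whole route. Of the 49 members 44 were lower in knockout than in wild-type females, 0 were higher and 5 did not pass the test, with a median log2 fold change of -0.74 against 0.03 over all genes tested (edgeR's quasi-likelihood test, Benjamini-Hochberg adjusted over all genes, threshold 0.05). Over all genes, 19.3% were called lower and 17.6% higher. The share lower was 23.9% among protein-coding genes, and 45.7% among the protein-coding genes with a mean of at least 1000 normalized counts, a level that 44 members reached and at which 42 of them were lower. The only member with an unadjusted p below 0.05 in the upward direction was Sec24b, and DESeq2 called 0 members higher. With library totals in place of TMM the median of all genes moved to 0.53, 19 members were lower and 2 higher (Sec23a and Sec24b), against 2.01% and 38.2% of all genes, and 36 of the 44 kept a negative value while Srp9, Sec63, Sec11a, Sec24c, Sec31a, Copa, Cope and Copg1 turned to small positive values without a call, whereas the members' median still lay 0.76 below that of all genes (0.77 with TMM) and 46 of 49 lay below it under either scaling.

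**Figure D1:**
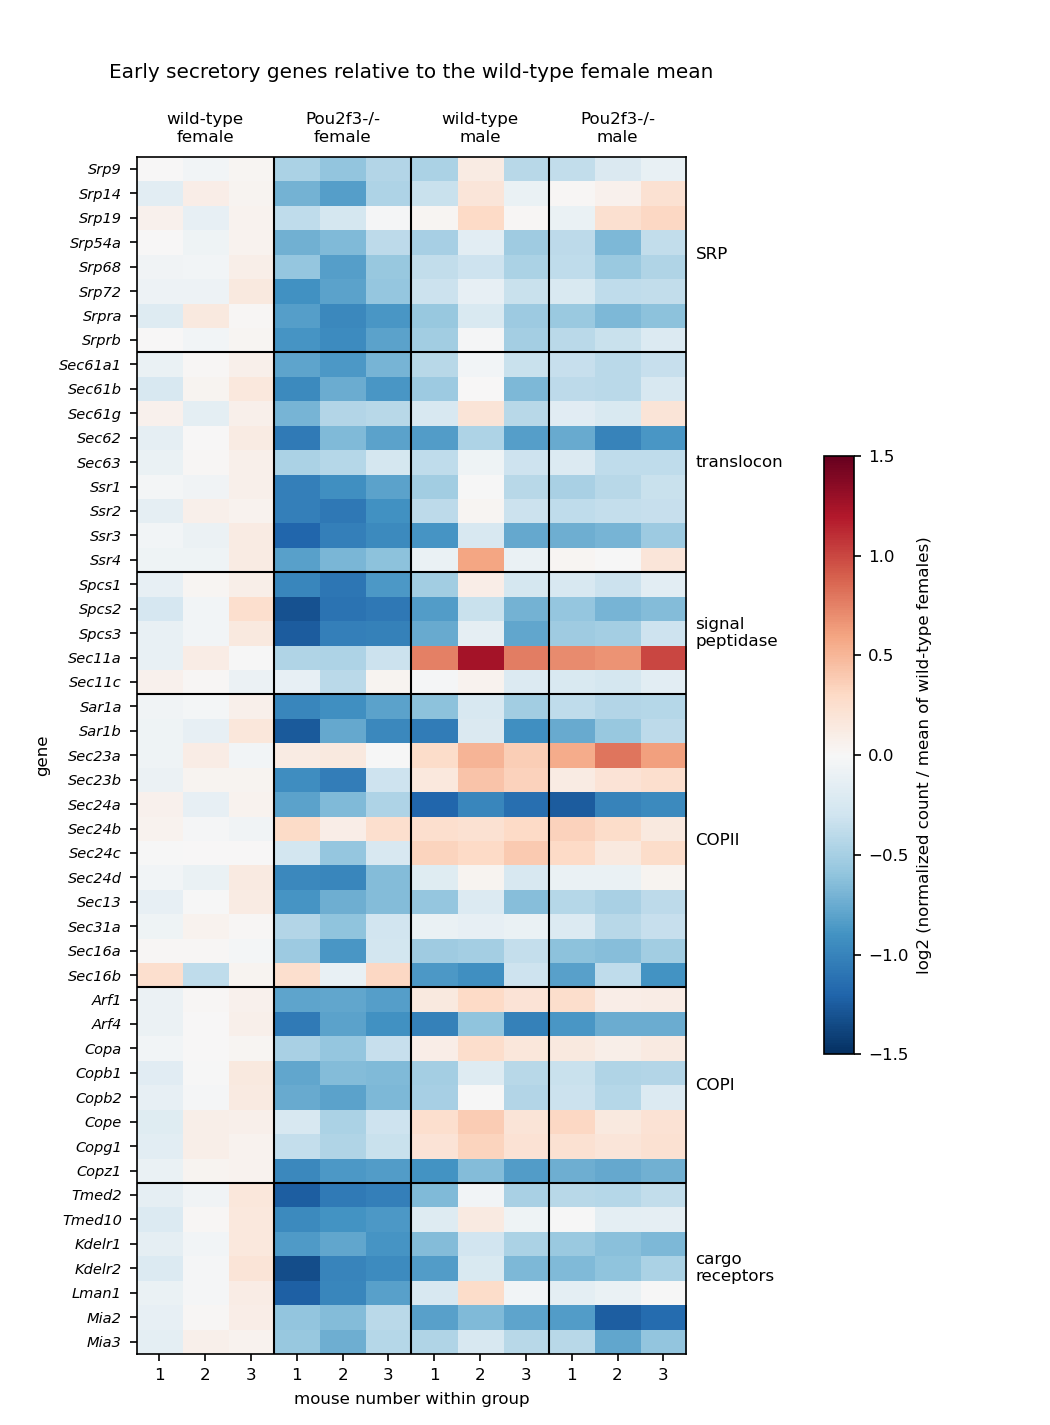
Level of each member (rows, by step of the route) in each of the 12 libraries (columns, by group and mouse number), as the log2 ratio of its normalized count to the mean of the wild-type females; red is higher and blue is lower. The 3 knockout females form the darkest blue block, with 31 of 49 members below all 9 other libraries, and Sec11a, Sec23a and Sec24c stand out in red in the males, on the TMM scale.

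In 44 members the 3 knockout females lay below the 3 wild-type females without overlap, which 24.1% of all genes also did. In 31 members all 3 knockout females lay below each of the 9 other libraries, against 11.9% of all genes. With library totals each of these counts was 26, against 4.85% and 3.69%. Only 5 members fell by 1 or more on the log2 scale, so the fall was broad and of moderate size.

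The SRP and its receptor came first on the route, and 7 of its 8 genes were lower in knockout females, with a median log2 fold change of -0.66. Srprb, the membrane anchor of the SRP receptor (ENSMUSG00000032553.15, chr9:103065219-103079347, minus strand, GRCm39), stood at 3455, 3344 and 3514 normalized counts in the wild-type females and at 1868, 1786 and 1965 in the knockout females. The groups did not overlap. On the TMM scale the males ran from between them up to the wild-type female range. These males were at 2388, 3389 and 2408 (wild type) and 2589, 2736 and 2979 (knockout). The log2 fold change in females was -0.88 ± 0.12 (SE, adjusted p = 0.0004, edgeR). Srpra, the GTPase subunit that binds SRP, fell by 0.89, and the SRP core proteins Srp68 and Srp72, which form a dimer on the SRP RNA, fell by 0.65 and 0.76. Under the authors' factors, described below for Srp19, the falls of Srpra and Srp72 were smaller, at -0.59 and -0.39, and both were still called (adjusted p = 0.014 and 0.018, edgeR). Srp54a, which recognises the signal sequence, fell by 0.58, although its near-identical copies Srp54b (-0.77) and Srp54c (-0.98) could have exchanged reads with it, so that the 3 values are not independent. Under the same factors the Srp54a value was -0.36 and did not pass (adjusted p = 0.11). Rn7s1 itself, the RNA scaffold of SRP, had a log2 fold change of -0.33 with an adjusted p of 0.40.

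Srp19, which helps SRP to assemble, was the member of this step that did not pass. It was measured at 682, 599 and 677 normalized counts in wild-type females and 500, 543 and 647 in knockout females, and the groups overlapped (log2 fold change -0.21 ± 0.14, adjusted p = 0.24, edgeR). Its value depended on the authors' own scaling. The deposited normalized table divides each gene by a factor that varies by gene as well as by library, and for Srp19 that factor, relative to the library's median, was 0.61 higher on the log2 scale in knockout than in wild-type females. With those factors as offsets, Srp19 was lower by -0.90 ± 0.19 (adjusted p = 0.0032, edgeR).

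All 9 genes of the translocon step were lower in knockout females, with a median of -0.83. Their summed level was 74691, 77895 and 84778 normalized counts in the wild-type females and 41010, 43524 and 46340 in the knockout females. Ssr2, a subunit of the translocon-associated protein (TRAP) complex that sits beside the channel (ENSMUSG00000041355.14, chr3:88483056-88497417, plus strand), had 4027, 4663 and 4590 normalized counts in wild-type females against 2175, 2102 and 2364 in knockout females. Every knockout female lay well below every wild type, and on the log2 scale Ssr2 fell by 1.00 ± 0.11 (adjusted p = 0.00019, edgeR). The other TRAP genes Ssr1, Ssr3 and Ssr4 fell by 0.91, 1.05 and 0.71. The channel subunits Sec61a1 and Sec61b fell by 0.78 and 0.85, and Sec61g by 0.51 with an adjusted p of 0.041, a call that was lost in 11 of 24 alternatives. Sec62 and Sec63, which assist the channel in post-translational import, fell by 0.83 and 0.38.

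Signal peptidase held the member with the largest fall on the TMM scale. Spcs2, an accessory subunit (ENSMUSG00000035227.8, chr7:99486776-99512669, minus strand), was at 4939, 5707 and 7007 normalized counts in wild-type females and at 2370, 2734 and 2806 in knockout females. Even the highest knockout female lay below the lowest wild type, and the log2 fold change was -1.16 ± 0.15 (adjusted p = 0.00027, edgeR). Spcs3, which the complex needs for cleavage, ran at 8227, 8590 and 9770 in wild-type females against 3723, 4341 and 4398 in knockout females (-1.09 ± 0.17, adjusted p = 0.00052, edgeR), and Spcs1 fell by 0.97.

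The 2 catalytic subunits of signal peptidase are alternatives to each other, and neither followed the accessory subunits closely. Sec11a fell by 0.41 in females, from 947, 1106 and 1017 normalized counts to 748, 745 and 815 (adjusted p = 0.034, edgeR), a call lost in 8 of 24 alternatives, among them the fits without wild-type female 2, wild-type female 3, knockout female 1 or knockout female 2. Sec11c did not pass, with 2586, 2504 and 2340 in wild-type females and 2283, 1870 and 2543 in knockout females, which overlapped (-0.15 ± 0.11, adjusted p = 0.31, edgeR). As with Srp19, the authors' factor of Sec11c was higher in knockout females, by 0.69 on the log2 scale relative to the library median, and with those factors Sec11c was lower by -0.92 ± 0.13 (adjusted p = 0.0004, edgeR). The standing of Sec11c as an exception thus rests on the scaling.

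Of the 12 COPII genes 9 were lower and 3 did not pass, with a median of -0.59, the smallest fall of the 6 steps. Sar1a, one of the GTPases that start coat assembly (ENSMUSG00000020088.11, chr10:61516060-61529095, plus strand), stood at 4588, 4680 and 5051 normalized counts in wild-type females and at 2415, 2513 and 2744 in knockout females. The groups were far apart relative to their spread (-0.90 ± 0.10, adjusted p = 0.00019, edgeR). Its paralog Sar1b fell by 0.99. Sec13 and Sec31a, which form the outer cage, fell by 0.75 and 0.44, and Sec16a, the large scaffold of ER exit sites, fell by 0.54. Sec31a lost its call under the authors' factors, with a value of -0.16 (adjusted p = 0.32).

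The inner coat, built from SEC23 and cargo-binding SEC24 proteins, was divided. Sec23b, Sec24a, Sec24c and Sec24d fell by 0.72, 0.64, 0.36 and 0.86, whereas Sec23a and Sec24b were not called. Under the authors' factors the Sec24c value was 0.01 ± 0.14 and did not pass (adjusted p = 0.95, edgeR). Sec23a was at 750, 847 and 766 normalized counts in wild-type females and at 857, 870 and 786 in knockout females, with overlap (0.09 ± 0.10, adjusted p = 0.51, edgeR). Sec24b was at 1063, 1014 and 990 against 1244, 1098 and 1221, so that the knockout females were all above the wild types, but the difference did not pass (0.22 ± 0.09, adjusted p = 0.066, edgeR). Sec16b, the shorter relative of Sec16a, was low throughout, at 190, 122 and 164 against 189, 147 and 197 (0.16 ± 0.24, adjusted p = 0.63, edgeR). Leaving out single libraries could turn the sign of Sec16b (-0.043 to 0.249) and of Sec23a (-0.007 to 0.098). Under the authors' factors Sec23a and Sec24b were called higher in knockout females, at 0.37 (adjusted p = 0.019) and 0.44 (adjusted p = 0.045), and Sec24b was also called under upper-quartile factors and under a filter of 10 counts in every library. Sec24a and Sar1b lie on opposite strands of chromosome 11 and their gene models overlap by 7691 bases. The libraries were stranded, but the strand setting of the counting is not given in the sources used here.

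All 8 genes of the COPI step were lower, with a median of -0.72. Copz1, the small zeta subunit of the coat (ENSMUSG00000060992.10, chr15:103181141-103208297, plus strand), had the smallest adjusted p of all members. It was measured at 2696, 2985 and 3008 normalized counts in wild-type females and at 1478, 1590 and 1617 in knockout females (-0.89 ± 0.09, adjusted p = 8.5e-05, edgeR). On the TMM scale Copz1 was as low in males, at 1559, 1839 and 1620 (wild type) and 1750, 1705 and 1764 (knockout). The GTPases Arf4 and Arf1, of which Arf1 recruits the coat to membranes, fell by 0.92 and 0.80. The coat subunits Copb1 and Copb2 fell by 0.69 and 0.74, Copa by 0.47, Copg1 by 0.38 and Cope by 0.34. Cope lost its call in 6 of 24 alternatives but fell by 0.51 under the authors' factors, and Copg1 lost its call under the authors' factors (-0.24, adjusted p = 0.087).

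All 7 cargo receptors and export adaptors were lower, with a median of -0.91. Kdelr1, a receptor that returns escaped ER proteins from the Golgi (ENSMUSG00000002778.15, chr7:45522196-45533781, plus strand), stood at 4121, 4431 and 5071 normalized counts in wild-type females and at 2525, 2639 and 2451 in knockout females (-0.84 ± 0.11, adjusted p = 0.00027, edgeR). Tmed2, a p24 protein that cycles between ER and Golgi, had the second largest fall of the members on the TMM scale, from 16897, 17935 and 20766 to 7875, 8912 and 9129 (-1.10 ± 0.16, adjusted p = 0.0004, edgeR). No knockout female reached the range of the wild types in Kdelr1 or Tmed2. Under the authors' factors Tmed2 fell by 0.83, less than several other members. Tmed10, its partner, fell by 0.91, Kdelr2 by 1.08 and Lman1, the lectin that ferries glycoproteins out of the ER, by 1.00. The fall was smaller in Mia2 and Mia3, which adapt exit sites for large cargo such as collagens, at 0.55 and 0.57.

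Levels differed widely between genes. Per kilobase of 1 canonical transcript model for each gene, wild-type females held most of Tmed2 (7610 normalized counts per kilobase), Ssr3 (7570) and Sec61a1 (7060), which lay close together, and least of Sec16b (35.9). A single long model, such as the 3652 bases for Srp14, sets such a value as much as the counts do, so only this coarse order is given.

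In male glands the same comparison gave no call. By edgeR's quasi-likelihood test 0 of 49 members differed between knockout and wild-type males, 2 had an unadjusted p below 0.05, DESeq2 called 0, and edgeR called 0.235% of all genes in either direction. DESeq2 called 2.22% of all genes, and edgeR 3.42% without knockout male 1, where still 0 members passed (4 had an unadjusted p below 0.05, and the smallest adjusted p was 0.056). The median log2 fold change of the members was -0.05, close to the -0.04 of all genes, with 35 negative and 14 positive values between -0.31 and 0.27. It turned to 0.06, with 16 negative values, without wild-type male 2 and was -0.11, with 43, without wild-type male 1. Mia2 had the lowest value, with 3501, 3912 and 3571 normalized counts in wild-type males against 3460, 2620 and 2771 in the knockouts (-0.31 ± 0.12, adjusted p = 0.32, edgeR). All 3 knockout males lay below the wild types, the highest of them by little. Sec23a had the highest value, with 955, 1123 and 1016 in wild-type males against 1162, 1370 and 1206 in knockout males, which did not overlap (0.27 ± 0.10, adjusted p = 0.29, edgeR).

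**Figure D2:**
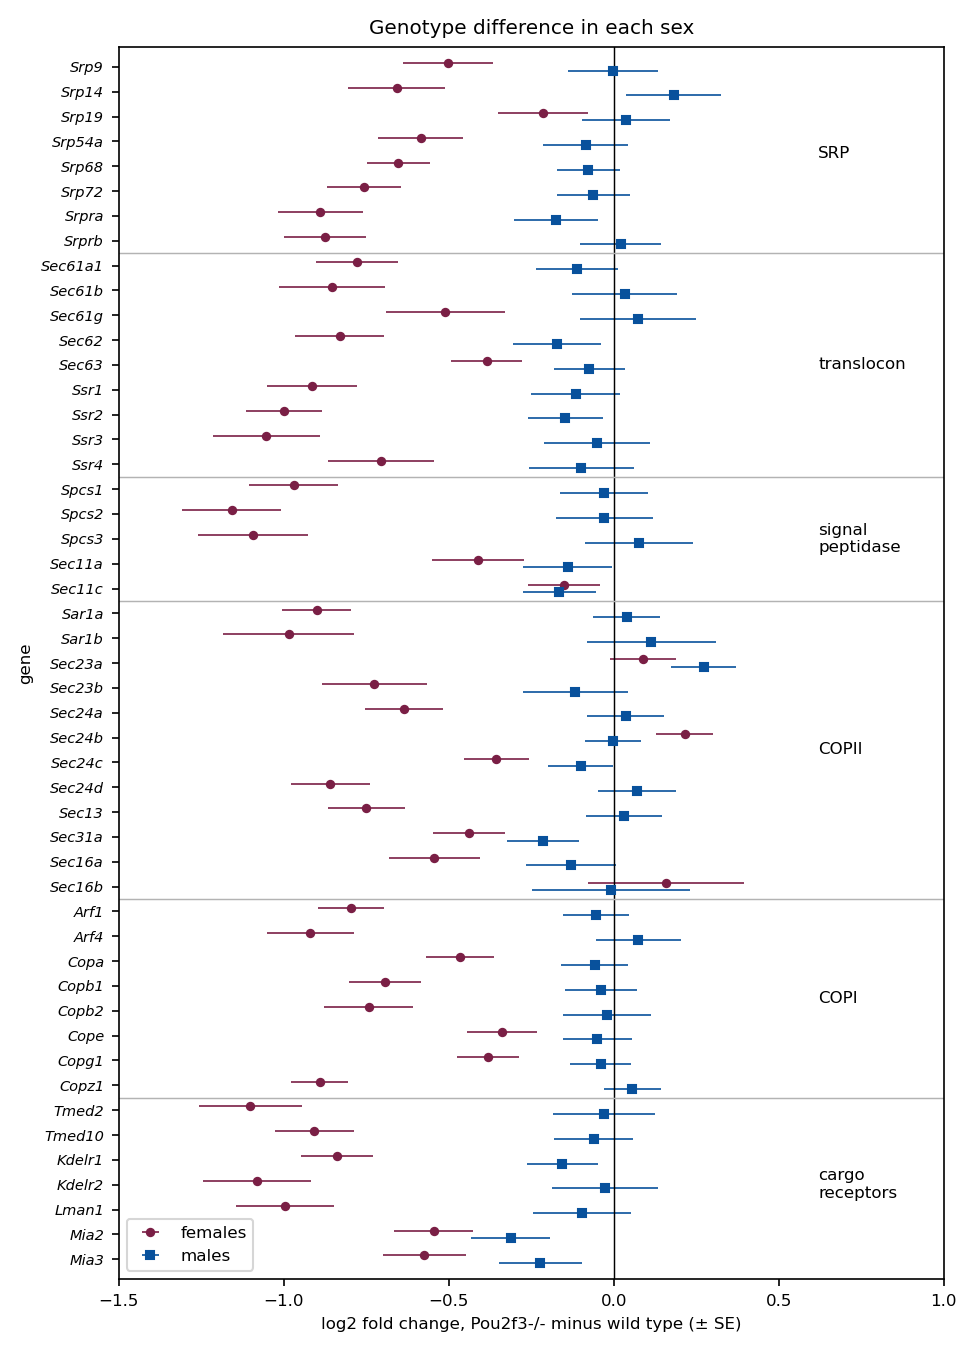
Log2 fold change of each member between Pou2f3-/- and wild-type glands (horizontal axis, ± SE from edgeR's fit), for females (circles) and males (squares), by step of the route. Female values lie between -1.16 and 0.22 with a median of -0.74, male values between -0.31 and 0.27, on the TMM scale.

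The difference between the sexes was tested directly as an interaction of sex and genotype. In 29 of 49 members the genotype difference was more negative in females than in males, no other call was made, and the median of the interaction was -0.67, against 12.4% of all genes called in the negative direction. Spcs3 had the largest interaction. Its levels were 5238, 8086 and 5169 normalized counts in wild-type males against 6108, 6225 and 7174 in knockout males, beside the female fall from 8227 or more to 4398 or less, and the interaction was -1.17 ± 0.23 (adjusted p = 0.0059, edgeR). Spcs2 came next, at 3285, 4665 and 3610 for wild-type males and 3936, 3636 and 3763 for knockout males (-1.13 ± 0.21, adjusted p = 0.0048, edgeR). By step, the interaction was called in 5 of 8 SRP genes, 6 of 9 translocon genes, 3 of 5 signal peptidase genes, 5 of 12 COPII genes, 5 of 8 COPI genes and 5 of 7 cargo receptors. Without knockout female 3, wild-type male 3 and knockout male 2, which leaves 9 libraries, 0 members passed in edgeR (35 had an unadjusted p below 0.05, the smallest adjusted p was 0.076, and 3 of all genes tested were called), although the median interaction was -0.70; DESeq2, which called 35 with all 12 libraries, was not run on the 9. With library totals in place of TMM 5 members were called in the negative direction and 1, Sec24b, in the positive, against 0.721% and 32.0% of all genes.

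The wild-type glands of the 2 sexes were compared next. On the TMM scale 21 members were lower in wild-type males than in wild-type females and 5 were higher, with a median of -0.29, against 16.0% and 20.5% of all genes, whereas with library totals 0 were lower and 40 higher, against 1.64% and 67.7%; relative to the median gene the members lay lower by 0.36 with TMM and by 0.38 with totals, and 38 of 49 lay below that gene under both. This comparison shares the wild-type females with the female genotype comparison. Wild-type male 2 was the highest of the 3 wild-type males in 44 of 49 members, against 40.6% of all genes, and without it 30 members were lower. Without wild-type male 1, wild-type male 3 or wild-type female 3 the count was 10, 13 and 13.

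On the TMM scale Sec24a had the largest fall from female to male. It stood at 7916, 6995 and 7869 normalized counts in wild-type females and at 3329, 3849 and 3463 in wild-type males, and it was as low in knockout males, at 3192, 3785 and 3932. The wild-type sexes were well separated (-1.10 ± 0.12, adjusted p = 1.4e-05, edgeR). On that scale the knockout females lay between, at 4358, 4798 and 5495.

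Sec11a showed the opposite order on the TMM scale. Its wild-type males had 1723, 2435 and 1738 normalized counts and its knockout males 1673, 1633 and 2046, all above the 1106 of the highest female (0.94 ± 0.14 between wild-type sexes, adjusted p = 0.00017, edgeR). Sec23a was also higher in wild-type males (0.39 ± 0.10, adjusted p = 0.0083, edgeR), and these 2 calls were kept in each of the 24 alternatives. The other 3 were less firm. Sec24c, at 4107, 4004 and 4259 in wild-type males against 3233, 3281 and 3257 in wild-type females, was higher by 0.34 (adjusted p = 0.016, edgeR). Sec24b, at 1215, 1201 and 1258 in wild-type males, was higher by 0.26 (adjusted p = 0.030), and Copg1, at 5363, 5844 and 5390 against 4166, 4938 and 4807, by 0.25 (adjusted p = 0.049). Of 24 alternatives, Copg1 lost its call in 21, Sec24b in 13 and Sec24c in 6.

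The knockout glands of the sexes were compared in the same way. Of the 49 members, 29 were higher in knockout males than in knockout females and 3 were lower, with a median of 0.44, against 23.2% and 20.3% of all genes, and with library totals 40 were higher and 0 lower, against 31.2% and 7.70%. On the TMM scale 7 members were called lower in wild-type males and higher in knockout males (Srprb, Spcs2, Spcs3, Sar1a, Sec13, Copb1 and Kdelr2), as were 1.02% of all genes, whereas with library totals no member was called lower in males of either genotype. This comparison shares its females with the female genotype comparison and its males with the male one. Sec11a had the largest difference, at 1.21 ± 0.14 (adjusted p = 2.3e-05, edgeR), on the per-library values given above. Arf1 was at 5000, 5047 and 4896 normalized counts in knockout females and at 10421, 9275 and 9311 in knockout males (0.96 ± 0.10, adjusted p = 1.2e-05, edgeR). On the TMM scale its wild-type glands lay near the knockout males, at 8111, 8786 and 9042 for females and 9543, 10640 and 9946 for males. The knockout females alone were low on that scale. With library totals Arf1 lost its call between the female genotypes.

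The 3 members lower in knockout males were Sec24a, Sec16b and Mia2, of which Sec16b lost the call in 6 of 24 alternatives, Sec24a in 5 and Mia2 in 2. Sec24a fell by 0.43 from knockout females to knockout males (adjusted p = 0.011, edgeR). Sec16b was at 90.5, 122 and 85.3 normalized counts in knockout males and at 189, 147 and 197 in knockout females (-0.84 ± 0.24, adjusted p = 0.013, edgeR), and its wild-type males were low as well, at 87.6, 83.8 and 128. Mia2 was at 4108, 3929 and 4658 in knockout females and fell by 0.52 (adjusted p = 0.0037, edgeR). With the group means of all 4 groups side by side on the TMM scale, knockout females were lowest in 40 of 49 members and wild-type females highest in 35, against 28.8% and 26.9% of all genes. With library totals these counts were 34 and 1, against 14.1% and 2.84%.

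Several members come as pairs of paralogs, related genes for the same kind of protein, and the balance within a pair can be read inside a library without scaling between libraries. The log2 ratio of counts was therefore described, with no test, for 8 pairs. The female genotypes overlapped in 4 of these pairs and did not in the other 4. These counts of pairs, here and between the sexes, have no share over other gene pairs beside them and are description only. The ratio of Sec24b to Sec24a was -2.90, -2.79 and -2.99 in wild-type females and -1.81, -2.13 and -2.17 in knockout females, and it lay between -1.80 and -1.30 in the 6 males. It thus ordered the groups as wild-type females, knockout females and males without overlap, although knockout female 1 lay next to the lowest male.

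The ratio of Sec23b to Sec23a fell in knockout females, from 2.58, 2.54 and 2.69 to 1.56, 1.43 and 2.29, where knockout female 3 lay close to the wild types. This was also the 1 pair that did not overlap in males, at 2.48, 2.52 and 2.58 (wild type) and 2.17, 2.01 and 2.25 (knockout). Sec24d to Sec24c went from 0.68, 0.60 and 0.85 to 0.02, 0.32 and 0.29 in females. The ratio of Sec16b to Sec16a went from -6.11, -6.75 and -6.28 to -5.57, -5.60 and -5.77, on few Sec16b counts.

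The sexes did not overlap in 3 pairs, taken over both genotypes. Besides Sec24b to Sec24a these were Sec11c to Sec11a, whose males lay 1.12 lower on the log2 scale, and Mia2 to Mia3, whose males lay 0.45 lower. The pairs Sar1b to Sar1a and Kdelr2 to Kdelr1 overlapped between genotypes in both sexes and between the sexes. In the authors' normalized table the female difference in Sec24b to Sec24a was 1.20 instead of 0.86 and that in Sec24d to Sec24c -0.99 instead of -0.50, and the difference in Sec11c to Sec11a was -0.43 instead of 0.25.

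**Figure D3:**
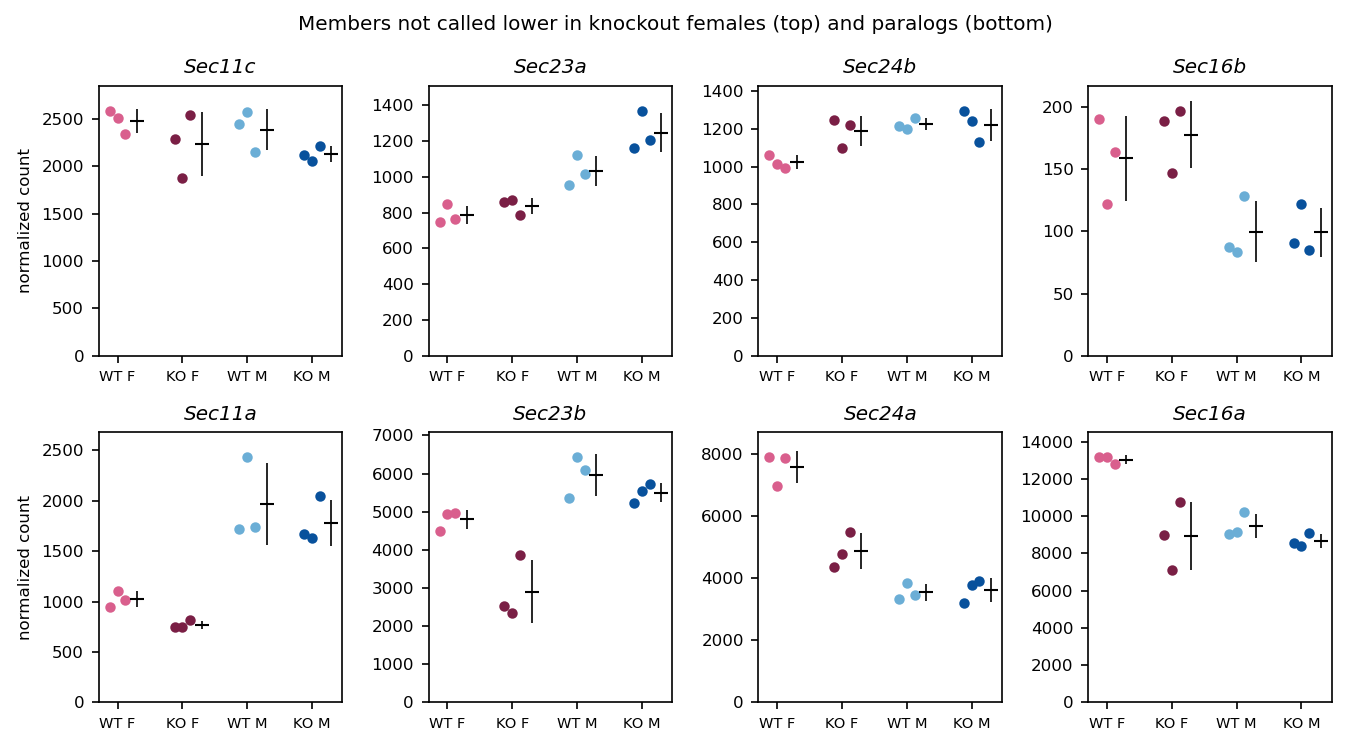
Normalized counts of the 4 COPII and signal peptidase members that were not called lower in knockout females (top row) above a paralog that was (bottom row), per library, by group (WT wild type, KO Pou2f3-/-, F female, M male); the dash and bar beside the points are mean and SD, n = 3. Sec24a falls from 6995 or more in wild-type females to between 4358 and 5495 in knockout females while Sec24b stays between 990 and 1244 in females, on the TMM scale.

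**Figure D4:**
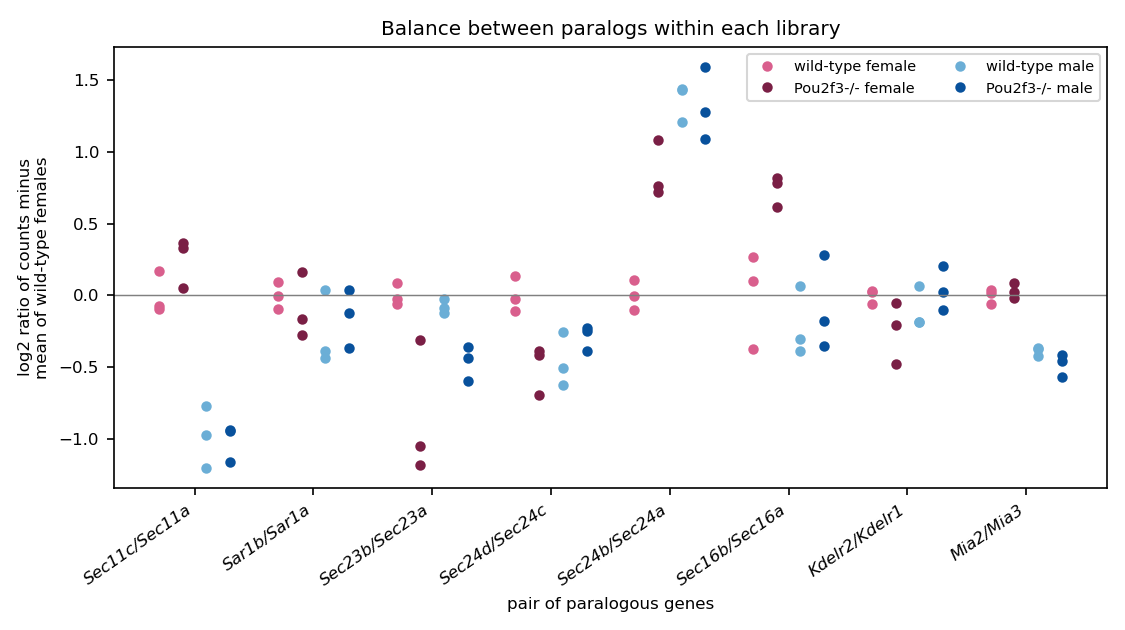
Log2 ratio of estimated counts within each library for 8 pairs of paralogs (horizontal axis), shown relative to the mean of the wild-type females; each point is a library. The Sec24b to Sec24a ratio moves up from wild-type females to knockout females and further to males, and Sec11c to Sec11a and Mia2 to Mia3 are lower in all 6 males than in all 6 females.

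Promoters of the members were read for elements of the unfolded protein response, the program that adjusts ER capacity. RefSeq promoters on GRCm38.p6 were at hand for 39 of the 49 members, each spanning 250 bases before the start site to 50 after it. Lman1, Srp68, Srp19, Spcs3, Ssr2, Sec11c, Tmed2, Srpra, Sec61a1 and Kdelr2 had no entry. The element TGACGTGG, which XBP1 and ATF6 are known to bind, was searched on both strands and found in 6 of the 39 members, and in 0.676% of 32851 promoters or 0.714% of the 27025 genes they belong to. These 6 windows are shown because both COPII and COPI members carry them and because not all members that hold them were lower in knockout females. Each line runs 5′ to 3′ on the gene's strand, with the element in capitals and 11 bases on either side.
Sec16b: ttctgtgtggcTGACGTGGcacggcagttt
Sec24d: gcccgggcgccTGACGTGGcactagcaacc
Copb1: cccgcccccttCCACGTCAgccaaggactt
Copb2: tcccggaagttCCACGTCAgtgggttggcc
Arf1: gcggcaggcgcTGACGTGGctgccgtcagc
Sec23a: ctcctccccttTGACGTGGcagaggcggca

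On GRCm38.p6 the windows lie at chr1:157506741-157506770 (Sec16b, plus strand), chr3:123267459-123267488 (Sec24d, plus), chr7:114254690-114254719 (Copb1, minus), chr9:98563713-98563742 (Copb2, plus), chr11:59228228-59228257 (Arf1, minus) and chr12:59011993-59012022 (Sec23a, minus). Copb1 and Copb2 carry the element on the opposite strand. Of the 6 members, Sec24d, Copb1, Copb2 and Arf1 were lower in knockout females and Sec16b and Sec23a were not called. The shorter core GACGTG, which every full element also contains, was found in 18 members and 6.38% of promoters (7.15% of genes), and 16 of those 18 were lower in knockout females, as were 36 of all 39 members with a promoter. The ER stress response element, CCAAT and CCACG spaced by 9 bases, was found in 0 of the 39 members and 0.119% of promoters. A match is a description of letters in this window and says nothing about binding.

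The route was widened to 85 further early secretory genes that could be tested, in 7 groups. This list was also chosen with earlier results known. On the TMM scale 66 of these were lower in knockout females, 2 were higher and 17 did not pass. Their median was -0.60, and the shares of all genes were the 19.3% and 17.6% given above. Without single libraries 64 to 73 were lower. With library totals the shares of all genes were 2.01% lower and 38.2% higher, so the counts here and by group below are limited to the TMM scale. In males 0 of 85 were called by edgeR, 0 had an unadjusted p below 0.05 and DESeq2 called 0. The interaction was called in 54 in the negative direction, against the 12.4% of all genes, and in 1 in the positive. The count of 55, both directions together, became 31 without wild-type male 1. It became 0 without the 3 libraries that stood apart, where 58 had an unadjusted p under 0.05 in edgeR. With library totals it was 14, again for both directions together, where 0.721% of all genes were called in the negative direction and 32.0% in the positive. DESeq2 on all libraries called 58.

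All 11 genes of the oligosaccharyltransferase, which attaches N-glycans at the translocon, were lower in females, with a median of -0.72. Magt1, a subunit of that enzyme, had the smallest adjusted p among them, at 7996, 8878 and 9672 normalized counts in wild-type females and 4874, 5156 and 4963 in knockout females (-0.82 ± 0.12, adjusted p = 0.00045, edgeR). The ER membrane complex, an insertase, had 9 of 10 genes lower, and tail-anchor insertion 4 of 6. The smallest adjusted p in these groups belonged to Mmgt1 (-1.09) and Ubl4a (-0.53). Among ER exit site factors 15 of 21 were lower, and Ykt6, a SNARE of vesicle fusion, went from 2384, 2281 and 2247 to 1127, 1189 and 1255 (-0.95 ± 0.09, adjusted p = 8.5e-05, edgeR).

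Other cargo receptors were lower in 13 of 16 cases and other COPI and Arf genes in 11 of 16, where Ergic1 (-0.71) and Gorasp2 (-0.86) had the smallest adjusted p. Of the 5 other translocon partners 3 were lower, 1 (Sec61a2) was higher and 1 did not pass. Both wider genes that rose are paralogs of genes that fell. Sec61a2, the second gene for the channel's alpha subunit, was at 311, 248 and 200 normalized counts in wild-type females and at 412, 367 and 382 in knockout females (0.61 ± 0.17, adjusted p = 0.014, edgeR). Lman2l, a relative of the lectin Lman2, went from 483, 442 and 423 to 648, 532 and 573 (0.38 ± 0.12, adjusted p = 0.026, edgeR). In both genes the knockout females all lay above the wild types.

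**Figure D5:**
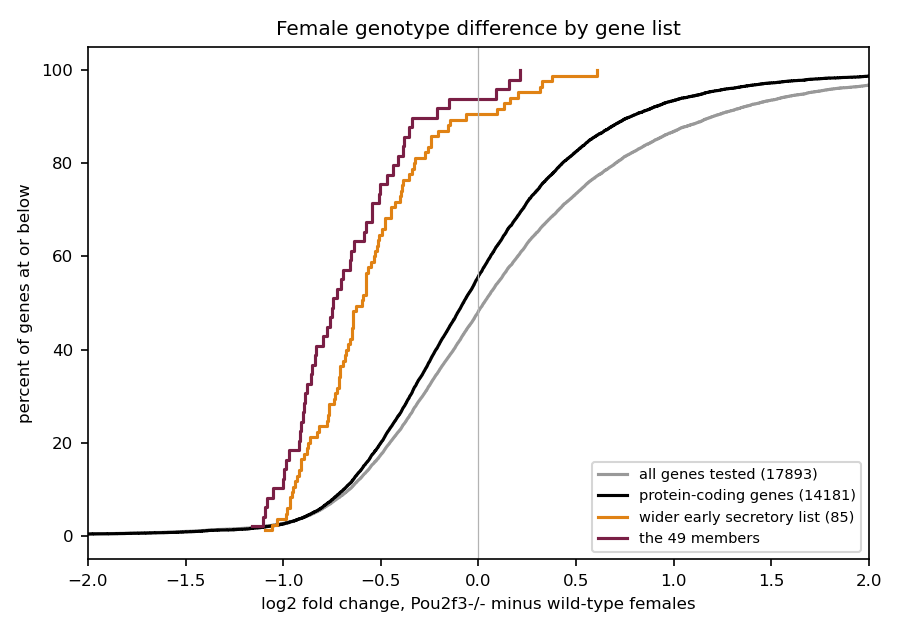
Cumulative percent of genes (vertical axis) at or below a given log2 fold change between Pou2f3-/- and wild-type females (horizontal axis), for all 17893 genes tested, the 14181 protein-coding ones, the 85 wider early secretory genes and the 49 members. The members' curve lies farthest left, with a median of -0.74, against -0.60 for the wider list, -0.08 for protein-coding genes and 0.03 for all genes, on the TMM scale.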

How the data were processed

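Estimated counts per gene, made by the authors with Salmon 1.10.1 on the mouse genome GRCm39 (Gencode M35, per the study's methods and the submitters' processing notes) and deposited for 12 libraries, were rounded to whole numbers (78.7% were whole already). The deposited normalized counts, a signal that the authors scaled by factors varying by gene and library, served only for the alternative with the authors' factors and for ratios between paralogs, from which the planned ratio of Copb2 to Copb1 was left out because they are different coat subunits. Libraries were total RNA with ribosomal RNA removed (paired reads of a NovaSeq6000), although the labels name polyA RNA. Symbols came from Gencode M39, which held 55563 of 56065 identifiers. Of 86 wider genes, Camlg was not matched, nor was the SRP RNA gene Rn7s2.

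All 12 libraries were fitted together with 1 mean per group in edgeR 4.0.16 (glmQLFit and glmQLFTest, TMM, filterByExpr), and p-values were adjusted by Benjamini-Hochberg over all 17893 genes of each contrast. The 3 mice of a group are biological replicates per the study's methods. A fold change is on the log2 scale and its SE is the fold change divided by the root of the F statistic. The script was tested on simulated counts. DESeq2 1.42.0, other scalings, other filters, a replicate block and fits without single libraries were alternatives; a fit without 3 libraries and fits on library totals were added after seeing the data. Genes were named by rule: in each step the called member with the smallest adjusted p in females, the 2 members with the largest change in each contrast, members called against the majority and, in the wider list, the called gene with the smallest adjusted p per group and direction. The 5 members not called in females were named besides. Members and lists were chosen with earlier results of these data known.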

Additional observations from a re-analysis of the deposited data

Results flagged for a closer look

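The genotype difference itself differed between females and males, by the interaction test of edgeR, in 29 of the 49 members, and it was more negative in females in all 29. Among the members described with full values, the interaction on the log2 scale was -1.17 for Spcs3, -1.13 for Spcs2, -1.07 for Tmed2, -0.95 for Copz1, -0.94 for Sar1a, -0.90 for Srprb, -0.85 for Ssr2, -0.74 for Arf1, -0.68 for Kdelr1 and -0.67 for Sec24a. Other members given with values for single libraries were not called in the interaction: Srp19 (-0.25), Sec11a (-0.27), Sec23a (-0.18), Sec24c (-0.26), Copg1 (-0.34), Mia2 (-0.23), Sec11c (0.01), Sec24b (0.22) and Sec16b (0.17). Each of the 10 that were called fell in knockout females without overlap between the female genotypes. So did 44 of the 49 members and 24.1% of all genes. Most of the 10 were named for their female values, so this is no separate result. None of the 49 was called in males. Without knockout female 3, wild-type male 3 and knockout male 2, none of the 49 passed the interaction test (35 had an unadjusted p below 0.05).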

How the results depend on the processing

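Members lower in knockout females, 44 in the report, numbered 40 to 44 in the other fits with all 12 libraries scaled by typical-gene or gene-wise factors (41 under the authors' factors, which kept 39 of the 44 and added Srp19 and Sec11c), 41 to 44 when single libraries were left out and 41 without the 3 libraries rich in Muc19, Bpifa2 or Smr3a, and 37 of the 44 were lower in every one of these fits. With library totals the count was 19, and 14 when Rn7s1 was left out of the totals. Of all 17893 genes tested, 360 were lower and 6843 higher with library totals. Of the 17892 genes without Rn7s1, 224 were lower and 8091 higher. The members' median lay 0.76 below that of all genes under both settings. Members higher in knockout females numbered 1 under upper-quartile factors, 2 under the authors' factors, 1 with 10 counts in every library, 2 with library totals and 3 with totals without Rn7s1; under the last setting Sec11c turned to 0.42 (adjusted p = 0.048). Without single libraries the female values of the uncalled members also moved, from -0.371 to -0.18 for Srp19 and from -0.302 to -0.083 for Sec11c. The range was 0.136 to 0.223 for Sec24b, and Sec16b and Sec23a could change sign. No setting called a member in males. The interaction count was 27 to 38 without single libraries and 0 without the 3 libraries. It was 6 and 5 with library totals, with and without Rn7s1, of which 1 in each case (Sec24b) was positive. All other calls were negative. Over all genes, 129 and 131 were called in the negative direction and 5732 and 4980 in the positive under these 2 settings.

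In wild-type glands the count lower in males was 10 to 30 without single libraries, 9 without the 3 libraries, and 0 and 1 with library totals. The count higher in males was 2 to 4 without single libraries, 7 with 10 counts in every library, 4 without the 20 most abundant genes and with the replicate block, 3 under RLE and upper-quartile factors, without a low-count filter, in DESeq2 and in the fit of the 2 groups alone, 2 under the authors' factors and without the 3 libraries, and 40 and 25 with library totals. With library totals, with and without Rn7s1, 12121 and 9258 of all genes were higher in wild-type males and 294 and 575 lower. In knockout glands the count lower in males was 1 to 3 without single libraries and 1 under the authors' factors and without the 3 libraries. It was 0 and 1 with library totals, where 1378 and 2279 of all genes were lower. Upper-quartile factors moved the median of all genes to 0.13 in females and -0.18 between knockout sexes; library totals moved it to 0.53 in females and 0.96 between wild-type sexes. The cause of the changed counts was not tested beyond the change in scaling or in the number of libraries.

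The labels do not say whether mouse numbers pair the samples. Deviations of same-numbered mice from their group means had correlations of -0.11 to 0.05 in females and -0.13 to 0.09 in males. With 3 mice per group these values cannot decide whether the mice were paired. With a replicate block 43 members were lower in knockout females, 0 were called in males and 30 in the interaction. Every member had at least 94 counts in every library.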
